A study of Mus musculus with 4 samples.

Results

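The T cell receptor complex and its coreceptors were followed through blood RNA sequencing of aging C57BL/6 mice. The 10 genes were taken by symbol: Cd3d, Cd3e, Cd3g, Cd247, Cd4, Cd8a, Cd8b1, Lck, Zap70 and Lat. All 10 had values in every library, out of 17823 genes with values. Ctrl mice received PBS and Nar mice received naringenin, a flavonoid, each for 30 days; the labels call all of them adult and name no genetic change. There were 2 libraries per group, numbered 1 and 3, made from oligo(dT)-purified RNA of whole blood, and the comparison addressed how Nar alters gene expression in aging blood. The labels do not say that each library came from a separate mouse, so the tests measure only the spread between these libraries.

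The T cell receptor recognises a peptide held by an MHC molecule, but its own chains carry no signalling tail. The CD3 delta, epsilon and gamma chains and the zeta chain, encoded by Cd3d, Cd3e, Cd3g and Cd247, carry the signal into the cell. CD4 and CD8 bind the MHC molecule and bring the kinase LCK to the receptor, LCK phosphorylates the CD3 and zeta tails, ZAP70 docks there, and ZAP70 then phosphorylates the adaptor LAT. CD4 marks helper T cells and CD8 marks cytotoxic T cells in blood. Not every one of these genes is restricted to T cells, since natural killer (NK) cells also use Cd247, Lck, Zap70 and Lat, and platelets use Lat below their collagen receptor.

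Values were FPKM, that is, fragment numbers divided by transcript length and by the size of the library, so they can be compared between genes but show shares of RNA and not amounts. Haemoglobin genes held between 92.6% and 96.4% of the summed FPKM, and every other gene shared the remainder. In bulk blood, fewer T cells and less RNA per T cell cannot be told apart. Each pair of values is given for library 1 and then library 3 of its group. The number of reads behind each value is not given, and most values of these genes were close to or below 1 FPKM, where counting error can be large. With 2 libraries against 2, the smallest two-sided p that an exact permutation test allows is 0.33, so single genes were tested with limma on log2(FPKM + 0.1), which understates changes of low values. Testing covered the 5339 genes whose FPKM averaged 0.5 or more, and p-values were adjusted over all of them by the Benjamini-Hochberg method. Over these genes, 39.6% passed at an adjusted p under 0.05 as lower with Nar, and the median log2 fold change was -1.07. These lower genes numbered 2113. When single libraries were left out, the median of all tested genes ran from -1.22 without Nar 1 to -0.93 without Nar 3. Such a fit keeps 1 library in a group, so its count of passing genes cannot show which libraries the share rested on.

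The 3 CD3 genes lie together on chromosome 9 (GRCm38, GENCODE M21). Cd3g (44969572 to 44980431, minus strand) and Cd3d (44981786 to 44987339, plus strand) point away from each other with 1354 bases between them, and Cd3e (44998740 to 45009627, minus strand) follows 11400 bases beyond Cd3d. Cd8b1 (71322788 to 71337494, plus strand) and Cd8a (71373427 to 71379173, plus strand) lie on chromosome 6 with 35932 bases between them, and Cd4 (124864692 to 124888221, minus strand) lies farther along it. Zap70 (36761798 to 36782818, plus strand) and Cd247 (165788681 to 165877277, plus strand) are on chromosome 1, Lck (129548344 to 129573641, minus strand) is on chromosome 4 and Lat (126363824 to 126369570, minus strand) is on chromosome 7. The 250 bases before the starts of Cd3g, Lck and Zap70 are shown, since these windows end at a gene start that GENCODE and RefSeq share and hold no annotated exon. They serve as upstream sequence of a CD3 chain and of the kinases that follow it. They come from RefSeq (GRCm38.p6), 5′ to 3′ on the strand of the gene, with capitals marking the ETS core GGAA and the RUNX motif TGTGGT on either strand.

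Cd3g, chr9:44980432-44980681, minus strand: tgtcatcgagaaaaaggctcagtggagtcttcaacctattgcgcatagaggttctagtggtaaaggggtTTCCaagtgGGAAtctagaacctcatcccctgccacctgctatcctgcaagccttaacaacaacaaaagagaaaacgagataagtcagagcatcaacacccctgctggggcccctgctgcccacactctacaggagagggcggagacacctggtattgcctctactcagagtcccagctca
Lck, chr4:129573642-129573891, minus strand: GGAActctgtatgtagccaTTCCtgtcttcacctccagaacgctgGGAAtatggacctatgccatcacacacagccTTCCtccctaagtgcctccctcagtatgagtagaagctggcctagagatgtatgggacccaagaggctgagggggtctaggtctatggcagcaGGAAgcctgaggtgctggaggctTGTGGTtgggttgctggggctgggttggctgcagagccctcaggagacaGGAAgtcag
Zap70, chr1:36761548-36761797, plus strand: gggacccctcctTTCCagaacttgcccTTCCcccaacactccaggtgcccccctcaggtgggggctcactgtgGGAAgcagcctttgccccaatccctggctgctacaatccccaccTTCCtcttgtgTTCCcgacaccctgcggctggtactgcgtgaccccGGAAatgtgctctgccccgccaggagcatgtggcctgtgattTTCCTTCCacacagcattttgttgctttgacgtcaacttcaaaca

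The ETS core was found 2 times before Cd3g, 6 times before Lck and 8 times before Zap70, and 93.4% of 32851 RefSeq promoter windows of this length held it. The RUNX motif was found 1 time before Lck and was not in the windows of Cd3g and Zap70, against 14.0% of all windows. The GATA motif AGATAA, searched on both strands, was found 1 time before Cd3g and was not in the windows of Lck and Zap70, against 9.99% of all windows. The E-box CANNTG, whose pattern is the same on both strands and whose matches can share bases with the other motifs, was found 3 times before Cd3g and 3 times before Zap70 and was not in the window of Lck, against 66.2% of all windows. A promoter entry was given for 8 of the 10 genes, 11 entries in all, and Cd4 and Cd8b1 were without one. Lck and Zap70 had further windows that lie inside the RefSeq gene and are not shown, so the counts hold for the windows shown only. The further Lck window held 3 ETS cores, 0 RUNX motifs and 1 E-box. Of the further Zap70 windows, 1 held 7 ETS cores and 1 RUNX motif, the other held 0 of both, and each held 1 E-box.

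The genes of the T cell receptor complex had log2 fold changes from -1.35 to 0.07, and 9 of the 10 were below 0. None of the 9 tested genes passed in limma, against the 39.6% of all tested genes, and 4 of the 9 had an unadjusted p under 0.05, against 56.9% of all tested genes. Both Nar libraries lay below both Ctrl libraries for 5 of the 10 genes, all of them tested, against 78.3% of all tested genes. The median log2 fold change was -0.64 over the 10 genes and -0.75 over the 9 tested, and 9 of the 10 lay above the median of all tested genes, the exception being Lat. That tally was 7 of 10 without Ctrl 3, where Lat lay above the median of all tested genes and Cd3g, Cd247 and Lck below it, and 8 of 10 without Nar 1. With no filter on low values the median of all genes was -0.57, and 5 of the 10 lay above it. When any single library was left out, none of the genes was called in limma, and between 0 and 2 of the 9 had an unadjusted p under 0.05, against 27% to 50.2% of all tested genes in these fits. The median was -1.05 without Nar 1, -0.42 without Nar 3, -0.38 without Ctrl 1 and -0.81 without Ctrl 3.

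**Figure D1:**
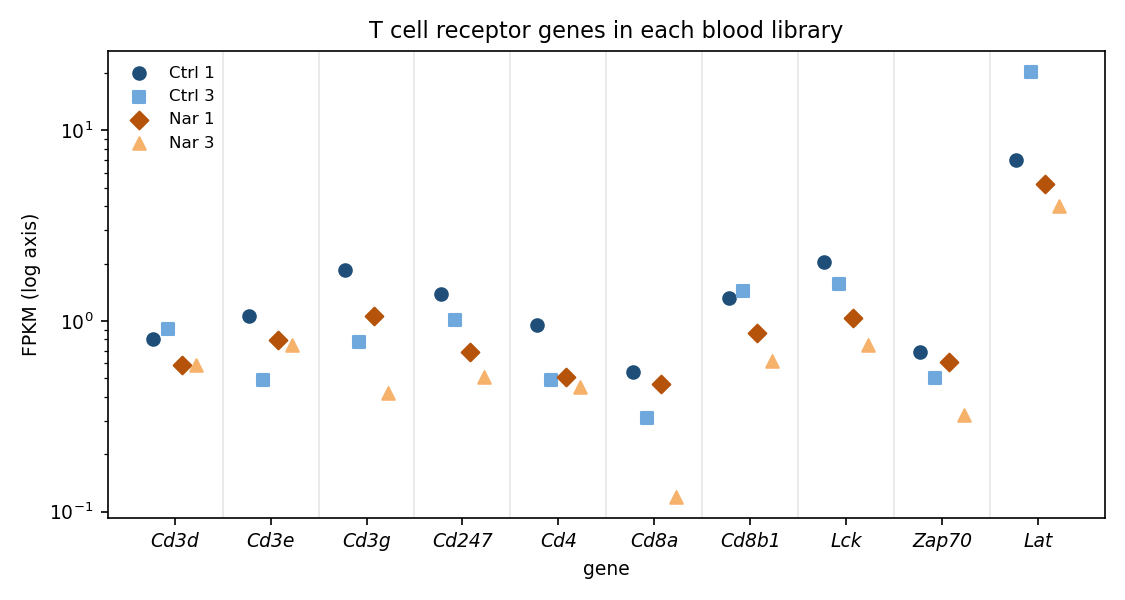
FPKM (log axis) of the 10 T cell receptor genes in each of the 4 blood libraries, 1 point per library. Lat stands above the other genes in every library, with Ctrl 3 highest at 20.2, while the other 9 genes lie between 0.12 and 2.04.

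The CD3 chains form the invariant core of the receptor, and their groups were separate for Cd3d and overlapped for Cd3e and Cd3g. Cd3d was at 0.80 and 0.91 FPKM in the Ctrl libraries against 0.59 and 0.59 in the Nar libraries. Both Nar libraries lay below both Ctrl libraries, with a log2 fold change of -0.47 (limma 95% interval -1.26 to 0.33, adjusted p = 0.264). Cd3e was at 1.06 and 0.49 in the Ctrl libraries against 0.79 and 0.75 in the Nar libraries. The Nar libraries lay between the Ctrl libraries, and the group means were 0.775 ± 0.403 FPKM (SD, n = 2) in Ctrl and 0.770 ± 0.0283 FPKM (SD, n = 2) with Nar. Its log2 fold change of 0.07 had an interval of -0.86 to 1.01 (limma adjusted p = 0.883), which did not reach the median of all tested genes. That value depended on both Ctrl libraries, being -0.42 without Ctrl 3 and 0.56 without Ctrl 1. Cd3e shares 135 exonic bases with an antisense gene, and the strand of the reads is not stated.

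Cd3g was at 1.85 and 0.78 FPKM in the Ctrl libraries against 1.06 and 0.42 in the Nar libraries. The groups overlapped, and in each group library 1 was more than 2-fold above library 3, with ratios of library 3 to library 1 of 0.422 in Ctrl and 0.396 with Nar. The log2 fold change of Cd3g was -0.75 (limma 95% interval -1.90 to 0.40, adjusted p = 0.220), and it was -0.18 without Ctrl 1 or without Nar 3 and -1.33 without Ctrl 3 or without Nar 1. Between Ctrl 1 and Ctrl 3, Cd3g and Cd3e differed by more than 2-fold, while Cd3d, their neighbour, was 1.14 times higher in Ctrl 3.

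The zeta chain carries the largest number of the tyrosine motifs that ZAP70 binds. Cd247 was at 1.39 and 1.01 FPKM in the Ctrl libraries against 0.69 and 0.51 in the Nar libraries. Both Nar libraries were below both Ctrl libraries, with means of 1.20 ± 0.269 FPKM (SD, n = 2) in Ctrl and 0.60 ± 0.127 FPKM (SD, n = 2) with Nar. The log2 fold change was -0.89 (limma 95% interval -1.71 to -0.07, unadjusted p = 0.0364, adjusted p = 0.0719). In GENCODE, 56.4% of the exonic bases annotated for Cd247 overlap exons of Pou2f1 on the opposite strand. Pou2f1 was itself low, at 0.19 and 0.25 FPKM in Ctrl and 0.06 and 0.09 with Nar, and its part in the value of Cd247 was not tested.

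Of the coreceptor genes, Cd4 and Cd8a were among the 3 lowest of the set by control mean, beside Zap70. Cd4 was at 0.95 and 0.49 FPKM in the Ctrl libraries against 0.51 and 0.45 in the Nar libraries. Ctrl 1 stood above the other 3 libraries, which differed little from each other. The log2 fold change of Cd4 was -0.44 (limma 95% interval -1.40 to 0.51, adjusted p = 0.371). It was -0.027 without Ctrl 1 and -0.86 without Ctrl 3. Cd8a, the CD8 alpha chain, was at 0.54 and 0.31 in the Ctrl libraries against 0.47 and 0.12 in the Nar libraries. The groups overlapped, and with a mean of 0.36 FPKM Cd8a was not tested. Its log2 fold change was -0.53, turning to 0.15 without Nar 3 and to -1.22 without Nar 1. Cd8b1, the CD8 beta chain, was at 1.32 and 1.43 in the Ctrl libraries against 0.86 and 0.62 in the Nar libraries. The groups of Cd8b1 did not overlap, and its log2 fold change was -0.83 (limma 95% interval -1.61 to -0.04, unadjusted p = 0.0416, adjusted p = 0.0782).

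LCK and ZAP70 act one after the other at the receptor tails. Lck was at 2.04 and 1.57 FPKM in the Ctrl libraries against 1.04 and 0.75 in the Nar libraries. It had the smallest adjusted p of the set, with a log2 fold change of -0.94 (limma 95% interval -1.76 to -0.12, unadjusted p = 0.0285, adjusted p = 0.0622) and a Nar mean at 49.6% of the Ctrl mean. Zap70 was at 0.69 and 0.50 in the Ctrl libraries against 0.61 and 0.32 in the Nar libraries. Its groups overlapped, and its log2 fold change was -0.33 (limma 95% interval -1.33 to 0.66, adjusted p = 0.513), turning to 0.044 without Nar 3.

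Lat was the most abundant gene of the set and the only one above 2.04 FPKM in any library. It was at 7.0 and 20.2 FPKM in the Ctrl libraries against 5.24 and 4.03 in the Nar libraries. Both Nar libraries were below both Ctrl libraries, with means of 13.6 ± 9.33 FPKM (SD, n = 2) in Ctrl and 4.64 ± 0.856 FPKM (SD, n = 2) with Nar. The log2 fold change of -1.35 (limma 95% interval -2.67 to -0.04, unadjusted p = 0.0450, adjusted p = 0.0817) rested on Ctrl 3. It was -0.60 without Ctrl 3, where Cd3g, Lck, Cd247, Cd4, Cd8a and Cd8b1 were lower, and -2.11 without Ctrl 1. Lat made up 39.7% and 73.0% of the summed FPKM of the set in the Ctrl libraries against 44.2% and 47.1% in the Nar libraries. Without Lat, a choice made after its values were seen, the median of the remaining 9 genes was -0.53.

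Lat and the platelet markers were both higher in Ctrl 3 than in Ctrl 1. Lat was 2.89 times higher in Ctrl 3 than in Ctrl 1, whereas the other 9 genes had ratios from 0.422 to 1.14, and only 5.64% of all tested genes had a ratio at least as high as that of Lat. The 6 platelet markers had ratios from 2.11 (Ppbp, a platelet chemokine) to 5.39 (Gp1ba, part of the receptor for von Willebrand factor). The summed FPKM of the platelet markers was 589 and 1878 in the Ctrl libraries against 497 and 384 in the Nar libraries. Between the Nar libraries, the ratio of library 3 to library 1 was 0.769 for Lat. It ran from 0.255 to 1 for the other 9 genes and from 0.462 to 1.07 for the platelet markers, so Lat was not apart from either. None of the 6 was at or near 0 in any library, and 0 of the 6 passed in limma, against 39.6% of all tested genes as lower, with 1 at an unadjusted p under 0.05. The part of platelet RNA in the Lat values was not tested.

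**Figure D2:**
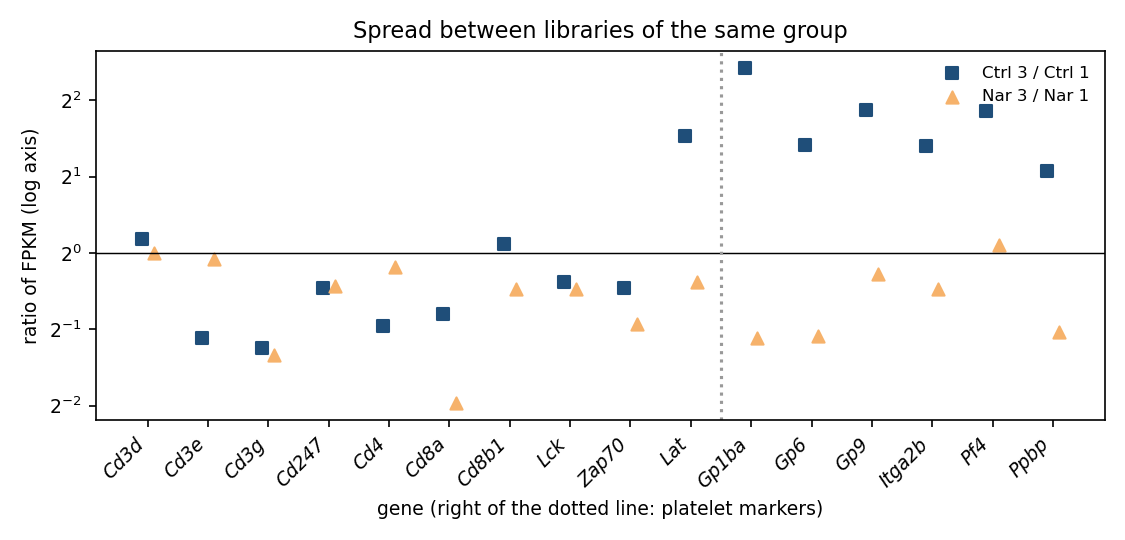
Ratio of FPKM between the 2 libraries of a group (log axis) for the 10 T cell receptor genes and 6 platelet markers, squares for Ctrl 3 over Ctrl 1 and triangles for Nar 3 over Nar 1. In Ctrl, Lat at 2.89 sits among the platelet markers and apart from the other 9 genes. In Nar, Lat at 0.769 lies within the range of both. No gene of the 10 was higher in Nar 3 than in Nar 1.

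Within the control libraries the genes ranked from Lat, through Lck at 1.81 ± 0.332 FPKM (SD, n = 2), Cd8b1, Cd3g, Cd247, Cd3d, Cd3e, Cd4 and Zap70, down to Cd8a at 0.425 ± 0.163 FPKM (SD, n = 2). Of the 9 neighbouring pairs in this order, 6 had overlapping control values. The gaps without overlap were those below Lat, below Lck and between Cd247 and Cd3d. Libraries 1 and 3 also differed within groups, since 7 of the 10 genes were higher in Ctrl 1 than in Ctrl 3, with Cd3d, Cd8b1 and Lat the exceptions, and 9 were higher in Nar 1 than in Nar 3, with Cd3d equal.

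Because most genes were lower with Nar on the FPKM scale, the set was also compared after each library had been divided by its median-of-ratios factor, so that the typical gene is level. Over all tested genes the median then shifted from -1.07 to -0.06. On this scale 9 of the 10 genes lay above 0 and the median of the set was 0.26. None of the 9 tested genes passed in limma, against 0.468% of all tested genes in either direction, and 1 of the 9, Cd3e, had an unadjusted p under 0.05, against 745 of 5339 genes, which is no more than the background share. Its log2 fold change was 1.05 (limma 95% interval 0.14 to 1.95, unadjusted p = 0.0283, adjusted p = 0.274). Scaled values of Cd3e were 0.71 and 0.339 in the Ctrl libraries against 1.07 and 1.19 in the Nar libraries, so that both Nar libraries were above both Ctrl libraries.

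Both Nar libraries were above both Ctrl libraries for 4 of the 9 tested genes after this scaling, namely Cd3d, Cd3e, Cd4 and Zap70, against 18.6% of all tested genes. None of the 9 had both Nar libraries below both Ctrl libraries, against 25.0% of all tested genes. Cd247, Lck and Cd8b1, which were about 2-fold lower as deposited, had log2 fold changes of 0.10, 0.084 and 0.18, and Lat had -0.26. When haemoglobin genes were taken out before rescaling, the median of the set was -0.21, that of all tested genes was -0.56, and again none of the 9 passed in limma, against 267 lower and 14 higher of 5329 genes, with 0 at an unadjusted p under 0.05, against 21.5% of all tested genes.

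**Figure D3:**
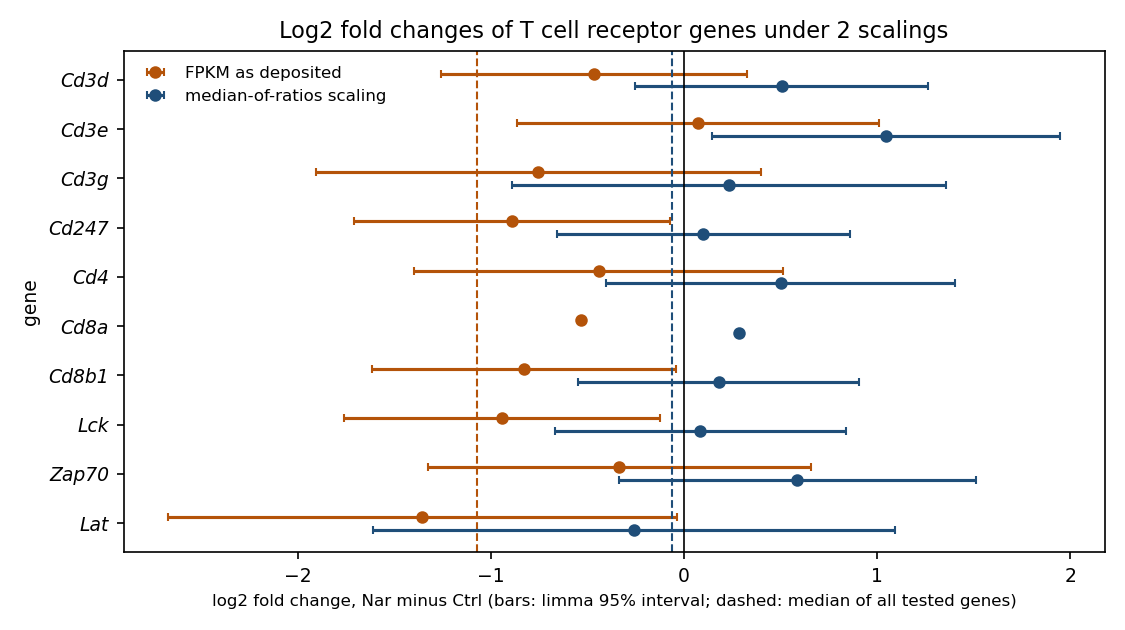
Log2 fold change (Nar minus Ctrl) of each T cell receptor gene from FPKM as deposited and after median-of-ratios scaling, with limma 95% intervals as bars; dashed lines mark the median of all tested genes at -1.07 and -0.06. Cd8a was not tested and has no interval, and 9 of the 10 genes lie to the right of the dashed line on each scale, Lat being the exception.

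Ratios within a library do not depend on how the library was scaled. From these genes 5 such ratios were formed and compared by two-sided exact permutation tests, whose smallest possible p is 0.333, with Benjamini-Hochberg adjustment over the 5 ratios. Cd4 to Cd8a, a rough measure of helper against cytotoxic T cell RNA, was 1.76 and 1.58 in the Ctrl libraries against 1.09 and 3.75 in the Nar libraries. The Nar libraries lay on either side of the Ctrl libraries (exact permutation p = 1, adjusted p = 1), and without Nar 3 the log2 difference turned from 0.27 to -0.62. Cd8a to Cd8b1, the balance of the CD8 chains, was 0.409 and 0.217 in the Ctrl libraries against 0.547 and 0.194 in the Nar libraries, again with overlapping groups (exact permutation p = 1, adjusted p = 1), and its log2 difference of 0.13 turned to -0.33 without Ctrl 3 and to -0.62 without Nar 1. With 0.1 added to each FPKM sum, the log2 difference was 0.090 for Cd4 to Cd8a and 0.29 for Cd8a to Cd8b1. Cd8a enters both ratios, and its 0.12 FPKM in Nar 3 was the lowest value of the set.

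Summed Cd3d, Cd3e and Cd3g were then set against genes of other leukocytes. Against Cd79a and Cd79b, the signalling chains of the B cell receptor, the ratio was 0.162 and 0.114 in the Ctrl libraries against 0.136 and 0.0878 in the Nar libraries. The groups overlapped (exact permutation p = 0.667, adjusted p = 1), with a log2 difference of -0.31 that came to 0.0077 without Nar 3. Against Csf3r, Cxcr2 and Mmp9, genes of neutrophils, the ratio was 0.0499 and 0.0483 in the Ctrl libraries against 0.440 and 0.227 in the Nar libraries. Both Nar libraries were above both Ctrl libraries, a log2 difference of 2.68 or 6.43-fold (exact permutation p = 0.333, adjusted p = 0.833). The CD3 sum itself was 3.71 and 2.18 FPKM in Ctrl against 2.44 and 1.76 with Nar, with overlap. The neutrophil sum was 74.3 and 45.1 FPKM in Ctrl against 5.55 and 7.77 with Nar. Against Ncr1, Klrb1c and Prf1, genes of NK cells, the ratio was 0.969 and 1.06 in the Ctrl libraries against 1.38 and 2.71 in the Nar libraries, without overlap and with a log2 difference of 0.93 (exact permutation p = 0.333, adjusted p = 0.833), which was 0.44 without Nar 3 and 1.42 without Nar 1. The sum of these NK cell genes was 3.83 and 2.05 FPKM in Ctrl against 1.77 and 0.65 with Nar.

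**Figure D4:**
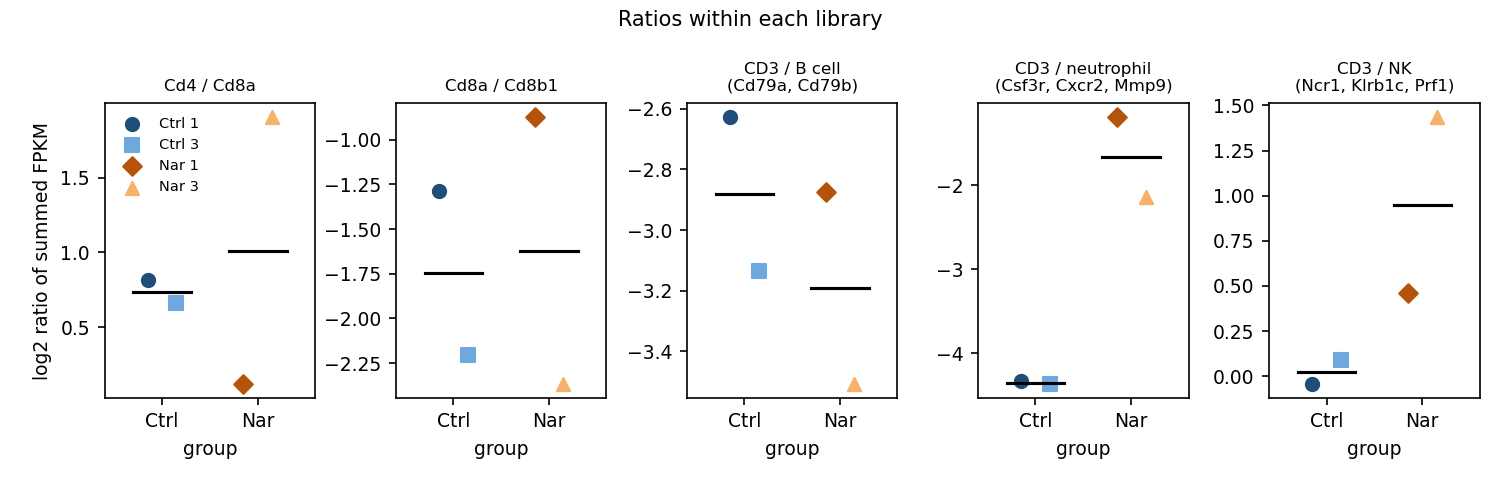
Log2 ratios of summed FPKM within each library, 1 panel per ratio with its own axis, points for libraries and bars for group means. The ratio of CD3 to neutrophil genes was 6.43-fold higher in Nar than in Ctrl libraries without overlap. Its CD3 sums overlapped between the groups, and its neutrophil sums were lower in both Nar libraries. The Cd4 to Cd8a ratio of the Nar libraries lay on both sides of the Ctrl libraries.

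Marker genes of other blood cells were measured in the same libraries, and their counts stand against the 39.6% of all tested genes that passed as lower. All 6 neutrophil markers passed in limma as lower with Nar, with a median log2 fold change of -3.68 and a summed FPKM of 128 and 98.8 in Ctrl against 8.15 and 11.0 with Nar. Of the monocyte markers, 3 of 4 tested genes passed as lower, and the sum of all 6 was 44.9 and 38.6 in Ctrl against 7.74 and 2.95 with Nar. Of the NK cell markers, 1 of 5 tested genes passed as lower, Gzma, a cytotoxic granule protease, and the sum was 15.2 and 15.5 in Ctrl against 7.12 and 3.21 with Nar. None of the 6 B cell markers passed (0 at an unadjusted p under 0.05), with a median of -0.41 and a sum of 37.3 and 28.8 in Ctrl against 28.2 and 29.3 with Nar. None of 9 tested red cell markers passed either (0 at an unadjusted p under 0.05), and the median of all 10 listed was 0.35. The T cell receptor genes, at -0.64, lay between the B cell and the NK cell markers, whose median was -1.24. The differences between these lists were not tested. On the median-of-ratios scale, where 0.468% of all tested genes passed, 2 of the 6 neutrophil markers passed in limma as lower (6 at an unadjusted p under 0.05), and 0 of the monocyte and NK cell markers did (1 and 0 at an unadjusted p under 0.05). The B cell median was then 0.65 and the red cell median 1.46, and both Nar libraries were above both Ctrl libraries for 6 of 6 B cell and 9 of 9 tested red cell markers, against 18.6% of all tested genes. None of these passed in limma, with 2 B cell and 9 red cell markers at an unadjusted p under 0.05, against 745 of 5339 genes. When haemoglobin genes were removed, 2 red cell markers passed as higher, against 0.263% of all tested genes. Fits with Ctrl 1 or Ctrl 3 left out keep 1 control library and cannot show whether these calls rest on a single library.

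**Figure D5:**
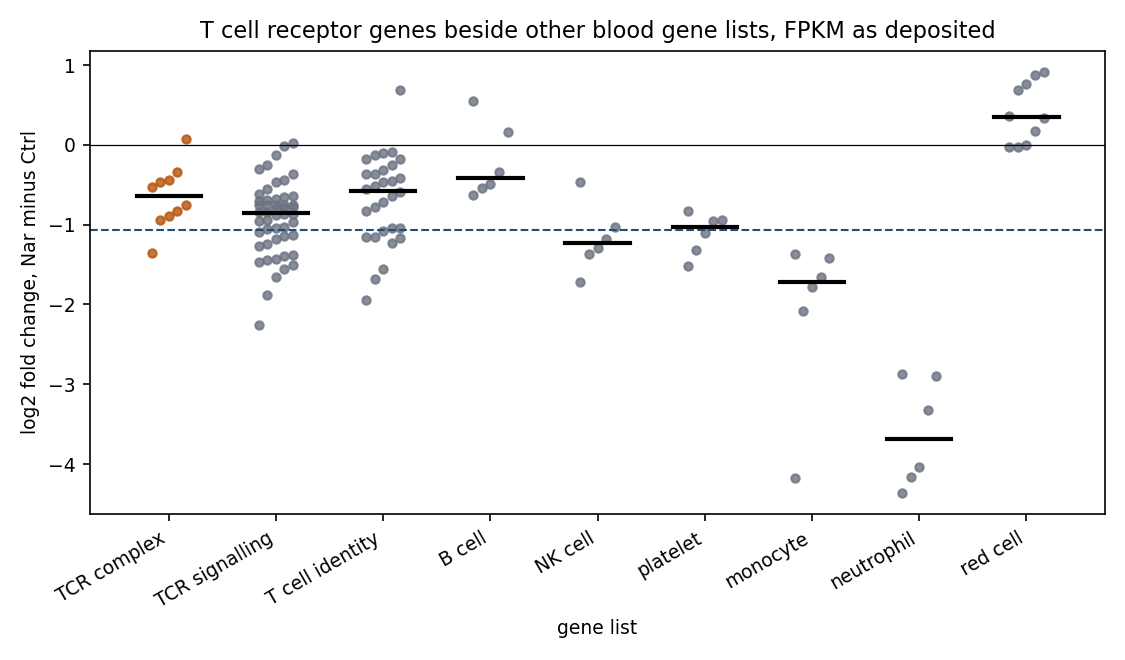
Log2 fold change (Nar minus Ctrl, FPKM as deposited) of each gene in 9 lists, with black bars for list medians and a dashed line for the median of all tested genes at -1.07. List medians include genes too low to test. The median of the T cell receptor genes, -0.64, lies above the dashed line, near those of the T cell identity (-0.57) and B cell genes (-0.41), and the neutrophil median is lowest at -3.68.

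Further genes of the receptor pathway, from the kinases beside LCK to the NFAT factors, were listed for comparison. Of 50 such genes, 34 could be tested, of which 11 passed in limma as lower with Nar and 0 as higher. An unadjusted p under 0.05 was found for 17 of the 34, against 56.9% of all tested genes. The share called lower, 32.4%, was near the 39.6% of all tested genes, and the difference was not tested. Their median log2 fold change was -0.85 over all 50 and -1.04 over the 34 tested. The 3 lowest tested genes were Pag1, a membrane adaptor that holds LCK inactive through CSK (-2.26, limma adjusted p = 0.00553), Ptprc, which encodes the leukocyte phosphatase CD45 (-1.88, adjusted p = 0.0309), and Lcp2, which encodes the SLP-76 adaptor that joins LAT (-1.66, adjusted p = 0.0245). Pag1 was at 2.22 and 1.75 FPKM in the Ctrl libraries against 0.38 and 0.29 in the Nar libraries. Ptprc and Lcp2 are expressed by myeloid cells as well, and neutrophil and monocyte markers were lower in the same libraries; their part in these values was not tested. The highest tested genes included Ppp3cb, a calcineurin subunit (-0.37), and Rasgrp1, an activator of RAS (-0.45), for which limma gave adjusted p of 0.394 and 0.326. On the median-of-ratios scale 0 of the 34 passed in limma, against 0.468% of all tested genes, and 1 had an unadjusted p under 0.05, against 14%. With haemoglobin genes removed 1 passed as lower, against 267 of 5329 genes. Fits with 1 library left out keep 1 library in a group and cannot show what the count of 11 rests on.

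A list of 30 T cell identity genes outside the receptor pathway held 20 tested genes, of which 6 passed in limma as lower with Nar and 0 as higher. An unadjusted p under 0.05 was found for 7 of the 20, against 56.9% of all tested genes. The share called lower was 30%, against 39.6% of all tested genes, with no test of the difference. The lowest tested genes included Zbtb7b, a factor of helper T cell fate (-1.68, limma adjusted p = 0.0195), and Satb1, a chromatin organiser (-1.23, adjusted p = 0.0368). Zbtb7b was at 2.57 and 1.55 FPKM in the Ctrl libraries against 0.70 and 0.44 in the Nar libraries. The highest 3 of the tested genes were the adhesion receptor Cd2 (-0.10), the growth factor binding protein Igfbp4 (-0.13) and the interleukin-7 receptor Il7r (-0.18), with adjusted p-values of 0.855, 0.791 and 0.765. The median was -0.57 over the 30 genes and -0.75 over the 20 tested. After median-of-ratios scaling 0 of the 20 passed in limma, against 0.468% of all tested genes. On that scale 0 had an unadjusted p under 0.05, against 14% of all tested genes. Fits with 1 library left out keep 1 library in a group and cannot show what the count of 6 rests on. The constant regions of the receptor chains, 9 symbols in all, were looked for, but none had values in the data used here, so they were not analysed.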

How the data were processed

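RNA-seq of blood was performed on 4 libraries, 2 Ctrl and 2 Nar. The deposited values are FPKM for each gene with 2 decimals. The paper's methods name bowtie-2, and the submitters' processing notes name TopHat2, Cufflinks and GRCm38; which tool made the FPKM values is not given in the sources used here. Every column was matched to a library by its title. Of 23136 genes listed, 5313 were blank throughout and 1441 of the other genes were at 0 in all 4 libraries. A search for whole-read steps in low values gave no usable step, so depth is unknown and no counting error is given.

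Differences were fitted on log2(FPKM + 0.1) where the mean over the libraries was 0.5 FPKM or more, using limma 3.58.1 (lmFit, eBayes with trend) in R 4.3.3 with Benjamini-Hochberg adjustment, after the steps had been tested on simulated data. DEGseq, used by the authors, needs read numbers. In each list the 3 lowest and 3 highest log2 fold changes among tested genes were named, beside all 10 genes of the set and those in the ratios; for marker lists the counts, sums and medians are given. Of the genes this rule names, 2 are not reported here. The genes and lists were chosen with earlier results of these data known. Marker lists covered B cells, NK cells, neutrophils, monocytes, platelets and red cells. Alternatives were other pseudocounts, other filters, rescaling, limma without the trend, a replicate block and leaving out each library. Python 3.11.15 with matplotlib 3.10.9 made the plots.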

Additional observations from a re-analysis of the deposited data

How the results depend on the processing

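The limma count for the T cell receptor genes was 0 under every alternative but the crossed replicate block. Some of these counts could hardly differ. Without the filter on low values 0 of all tested genes passed, and with a mean of at least 5 FPKM only 1 gene of the set, Lat, was tested. Lower calls over all tested genes, in the receptor pathway and among T cell identity genes were 0, 0 and 0 without the filter on low values, 116, 1 and 1 when the mean had to reach 5 FPKM, 267, 1 and 0 with haemoglobin genes removed, and 19, 0 and 0 with median-of-ratios scaling, against 2113, 11 and 6. Without the trend, 3 identity genes were called. Leaving out 1 library gave 0 to 254 calls over all tested genes, 0 to 1 in the pathway and 0 to 0 among identity genes; with 1 library in a group, its spread is assumed equal to the other group's.

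The median of the set was -0.31 with a pseudocount of 1, -0.21 with haemoglobin genes removed and reversed to 0.26 with median-of-ratios scaling; without single libraries it ran from -1.05 to -0.38. Median-of-ratios scaling, which by its construction moved the median of all tested genes from -1.07 to -0.06 and each gene with it, reversed Cd3d (0.51), Cd3g (0.23), Cd247 (0.10), Cd4 (0.50), Cd8a (0.28), Cd8b1 (0.18), Lck (0.084) and Zap70 (0.59). Removing haemoglobin genes, which likewise moved that median to -0.56, reversed Cd3d (0.025), Cd4 (0.020) and Zap70 (0.12). Without single libraries, Cd3e ran from -0.42 (reversed, without Ctrl 3) to 0.56 and Zap70 from -0.71 to 0.044 (reversed, without Nar 3), and Cd8a turned to 0.15 without Nar 3. The log2 difference of the ratios then ran from -0.62 to 1.17 for Cd4 to Cd8a (reversed without Nar 3), from -0.62 to 0.88 for Cd8a to Cd8b1 (reversed to -0.33 without Ctrl 3 and to -0.62 without Nar 1), from -0.63 to 0.0077 for CD3 to Cd79 genes (reversed without Nar 3), from 2.21 to 3.16 for CD3 to neutrophil genes and from 0.44 to 1.42 for CD3 to NK cell genes. The changes without single libraries follow from the values of the library left out, and why those libraries differ was not tested.

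The replicate number as a block gave 1802 lower calls, 6 in the pathway and 3 among identity genes. Same-numbered libraries deviated with a correlation of -0.153 across genes, and the labels do not say that a number marks a shared batch or animal. The crossed replicate block, chosen after seeing the data, gave 3211 lower calls, 19 in the pathway, 7 among identity genes and 2 in the set (Lck and Lat).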
